A study of Mus musculus with 6 samples.

Results

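The genes of fatty acid beta-oxidation were followed in brown fat of cold-exposed mice with and without the AT form of adenylyl cyclase 3 (ADCY3). The set holds 35 genes of the 54385 rows of the count table, listed by name for their place in mitochondrial or peroxisomal oxidation. The rule uses no measured value, but the list was drawn up with earlier results of these data known. Of these, 19 act in mitochondria, 9 act in peroxisomes, 3 (Crat, Eci2 and Ech1) are found in both organelles, and 4 are long-chain acyl-CoA synthetases (Acsl1, Acsl3, Acsl4 and Acsl5), which activate fatty acids ahead of either route. All 35 passed the low-count filter that left 18114 genes to test. Total RNA of interscapular brown adipose tissue, a depot that makes heat in the cold, was sequenced from C57BL/6N mice aged 20 weeks. Every animal ate chow until it was 8 weeks old and then a high-fat diet for 12 weeks, and all were held at 4 °C for 24 h. One group was wild type (3 libraries) and the other was ADCY3∆AT (3 libraries), a knockout of that form of the cyclase. There was no library from warm-housed or chow-fed mice among these 6, so both groups carry the diet and the cold. The labels do not give the sex of the mice or say in which cells the deletion acts, and they do not say that each replicate is a separate animal, so p-values measure only how far these samples spread, part of which may be technical. The series text names the depot as inguinal while each sample label names it as interscapular.

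Fatty acids are burned as acyl-CoA. In mitochondria, long-chain acyl groups cross the membranes on carnitine and pass through rounds of dehydrogenation, hydration, dehydrogenation and thiolysis, with the electrons handed to the respiratory chain, which in brown fat feeds the proton gradient that the uncoupling protein Ucp1 turns into heat. Peroxisomes shorten very-long-chain and branched acyl chains with separate enzymes, and their first oxidation passes electrons to oxygen and not to the chain.

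The sequences printed are stretches before RefSeq start sites of members, or between the starts of a pair, shown because nuclear receptors such as PPARs and ERRs, which drive oxidation genes, bind variants of the hexamer AGGTCA. Hadha and Hadhb, which encode the alpha and beta subunits of the mitochondrial trifunctional protein, lie head to head on chromosome 5, with 85 bases between the annotated starts of Hadha (minus strand) and Hadhb (plus strand). That stretch, at chr5:30155163-30155247 in build GRCm38.p6 and on the plus strand, held no match to the hexamer.
Hadha-Hadhb: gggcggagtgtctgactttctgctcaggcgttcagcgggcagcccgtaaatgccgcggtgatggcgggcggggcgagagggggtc
The hexamer occurred in 5 members, each given with up to 15 bases on either side, read 5′ to 3′ along the gene, with the hexamer or its reverse complement in capitals. The positions are chr3:153944872-153944893 (minus strand) for Acadm, chr11:70015495-70015530 (minus) for Acadvl, chr19:3323192-3323227 (plus) for Cpt1a, chr7:140116484-140116519 (minus) for Echs1 and chr4:108118636-108118671 (minus) for Scp2. The RefSeq starts used for Cpt1a and Scp2 lie inside the GENCODE spans of these genes, which hold other transcripts that start farther upstream.
Acadm: gTGACCTtcgggctccggtgac
Acadvl: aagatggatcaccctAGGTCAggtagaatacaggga
Cpt1a: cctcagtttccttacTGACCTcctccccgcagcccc
Echs1: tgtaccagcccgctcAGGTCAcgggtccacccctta
Scp2: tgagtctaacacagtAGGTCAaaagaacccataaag
RefSeq windows from 250 bases before to 50 bases after a start site (GRCm38.p6) were given for 28 of the 35 members. AGGTCA, on either strand, was in 5 of those 28 (17.9%) and in 4900 of 27025 genes (18.1%), so the share among members was close to that over all genes. The direct repeat AGGTCANAGGTCA and the extended form TCAAGGTCA, both of which contain the hexamer, were in 0 of 28 members, against 13 genes (0.0481%) and 126 genes (0.466%) of all. A match is only a run of letters in this window.

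Library totals lay between 44826777 and 54933588 estimated counts. Adcy3 as a whole gene had 677, 728 and 652 CPM (counts scaled to the library's size with TMM factors) in wild type against 348.5, 342 and 506 CPM in ADCY3∆AT. The 2 groups did not overlap (log2 fold change -0.78 ± 0.14 (SE), edgeR adjusted p = 0.158; DESeq2 adjusted p = 4.26e-07). Ucp1, which defines brown fat, was at 10483, 10327 and 10647 CPM in wild type against 10060.1, 10243 and 9972 CPM in ADCY3∆AT (log2 fold change -0.06, edgeR adjusted p = 0.674). Of 9 brown adipocyte markers, 3 had groups that did not overlap, all lower in ADCY3∆AT, against 16.5% of all genes (8.83% lower). Among them were Ucp1 and Elovl3 (log2 fold change -0.38, edgeR adjusted p = 0.305, DESeq2 adjusted p = 0.0332). Adipoq, Plin1, Fabp4 and Lep of this list are not specific to brown fat, and Lep is better known from white fat. Lep had the largest fold change of the 9 (log2 fold change 1.12, edgeR adjusted p = 0.577). It had 5.67, 4.50 and 9.49 CPM in wild type against 22.9, 17.4 and 2.30 CPM in ADCY3∆AT. Endothelial markers summed to 928.7, 860.1 and 901 CPM in wild type against 932, 974 and 993 CPM in ADCY3∆AT. Of these 6 markers, 4 were higher and not overlapping, against 7.68% of all genes, and Cdh5 was called in DESeq2 (adjusted p = 0.0202). Of 8 hepatocyte markers, 6 were below 1 CPM in each library, and the others were Serpina1a and Cyp2e1. Serpina1a overlapped between the groups. Cyp2e1 had 33.7, 34.7 and 46.5 CPM in wild type against 17.5, 15.8 and 24.3 CPM in ADCY3∆AT. Its groups did not overlap (log2 fold change -0.99, edgeR adjusted p = 0.158, DESeq2 adjusted p = 4.26e-07). Skeletal muscle markers had the largest median log2 fold change of the 5 marker lists, at -3.07. All 30 had a negative log2 fold change, 29 of them at an unadjusted edgeR p under 0.05 and with groups that did not overlap. Over all genes tested, 5.78% were lower at that p and 8.83% were lower without overlap. Their summed level was 2742, 1859 and 4841 CPM in wild type against 264.5, 664.8 and 971 CPM in ADCY3∆AT. Of the 30, 6, Ckm among them, were listed at 0 in ADCY3∆AT replicate 1. Mb, the marker whose groups overlapped, had 404, 354 and 423 CPM in wild type against 223, 363 and 359 CPM in ADCY3∆AT. Mb alone thus made up most of the sum in ADCY3∆AT replicate 1. Muscle also burns fatty acids with many of the same enzymes. In whole tissue, fewer cells of a type and less RNA per cell cannot be told apart.

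No gene of fatty acid oxidation passed the test between genotypes. In edgeR's quasi-likelihood test, 0 of 35 members had an adjusted p under 0.05, against 1 of 18114 genes (0.00552%), and the members' adjusted p-values ran from 0.307 to 0.993. DESeq2 called 0 of 35 members, against 229 of 19977 genes (1.15%), and limma voom called 0 members. At an unadjusted edgeR p under 0.05 there were 2 members, both lower in ADCY3∆AT (Acadsb and Acsl4), against 11% of all genes tested, with 5.23% higher and 5.78% lower. The same 2 members were the only ones whose groups did not overlap, against 16.5% of all genes, with 7.68% higher and 8.83% lower. Leaving out wild-type replicate 2 or ADCY3∆AT replicate 2 left 1 member, Acsl4, at an unadjusted p under 0.05, against 7.2% and 7.22% of all genes in those fits. Leaving out ADCY3∆AT replicate 1 or 3 gave 4 members, against 9.39% and 14% of all genes. The log2 fold change (ADCY3∆AT minus wild type) ran from -0.19 for Acadsb to 0.40 for Abcd2, with a median of -0.01 and 20 of 35 below 0; the median of all genes tested was 0.00.

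The members' fold changes were small and their intervals narrow. The 95% interval of the edgeR fold change lay within 1.5-fold in either direction for 34 of 35 members, the exception being Abcd2, and within 1.3-fold for 33, the other exception being Ehhadh. The median size of the log2 fold change, whatever its sign, was 0.051 over members and 0.118 over all genes. These genes are also abundant, and abundant genes had smaller fold changes than genes at large. Over the 4080 genes with a mean at least that of the scarcest member (32.6 CPM), the median size was 0.0668. Of those genes, 67.2% lay within 0.1 of 0, against 29 of 35 members (82.9%). The 4080 genes share only that lower bound and were not matched to the members' levels. Together the members made up 3.24%, 3.16% and 3.24% of all counts in wild type against 3.29%, 3.17% and 3.15% in ADCY3∆AT, so the share of the transcriptome given to them overlapped between the groups.

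**Figure D1:**
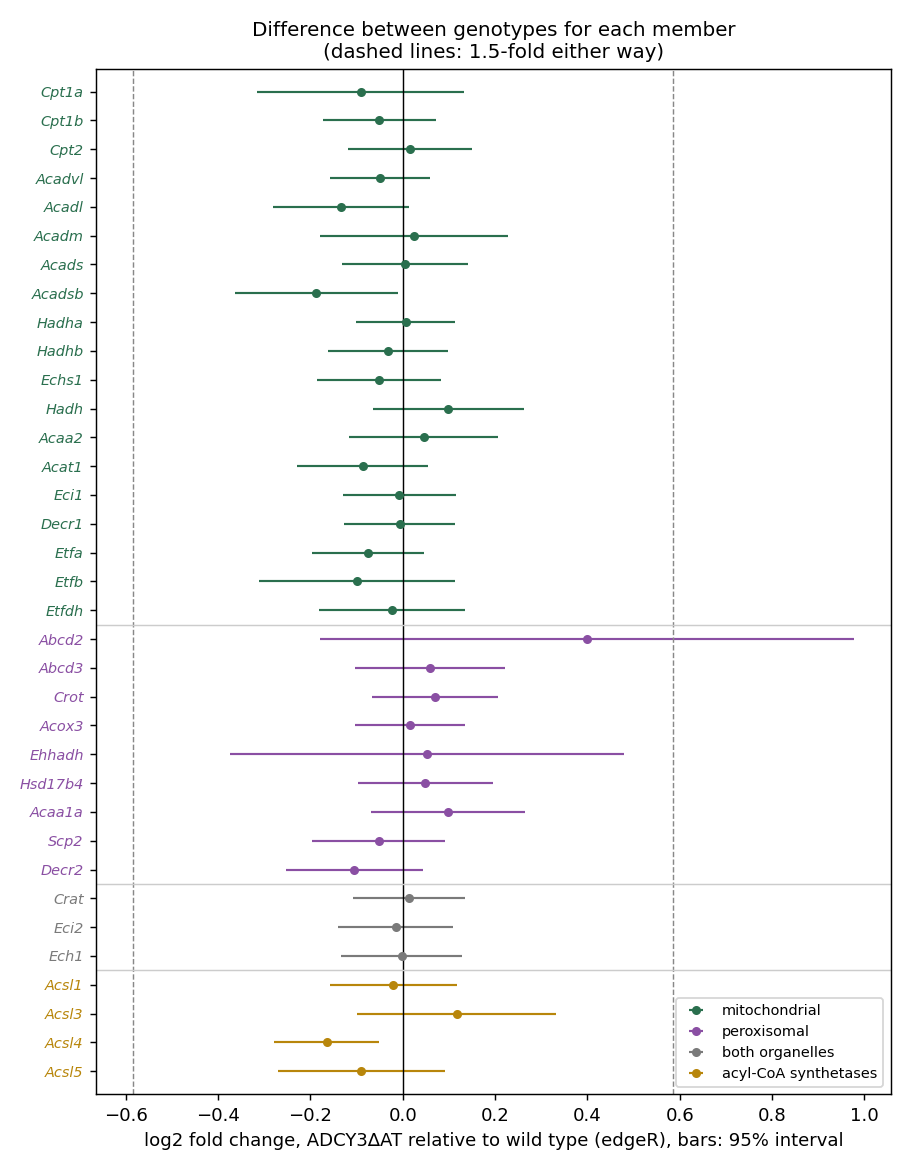
Log2 fold change of each of the 35 members (ADCY3∆AT minus wild type) with its 95% interval from edgeR, grouped by organelle and coloured by class. Most estimates lie within 0.1 of 0, Abcd2 has the widest interval, and only the intervals of Acadsb and Acsl4 do not reach 0.

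The carnitine steps admit long-chain acyl groups to mitochondria. Cpt1 on the outer membrane makes acylcarnitine, the step that malonyl-CoA inhibits, and Cpt2 inside turns it back into acyl-CoA. Cpt1b (ENSMUSG00000078937, chromosome 15, 89416405 to 89425863), the muscle and brown fat form of Cpt1, had 1521, 1556 and 1456 CPM in wild type against 1493, 1388 and 1495 CPM in ADCY3∆AT. These groups overlapped, and the log2 fold change was -0.05 (95% interval -0.17 to 0.07). Cpt1a (ENSMUSG00000024900, chromosome 19, 3322334 to 3385733), the liver form, was scarce, with 61.9, 54.9 and 54.4 CPM in wild type against 45.6, 58.7 and 56.4 CPM in ADCY3∆AT. Its lowest library was ADCY3∆AT replicate 1, and the other ADCY3∆AT libraries lay within the wild-type range (log2 fold change -0.09, interval -0.32 to 0.13). Per kilobase of transcript, Cpt1b stood at 522 CPM and Cpt1a at 13.2 CPM in wild type. The ratio of Cpt1b to Cpt1a on that scale was 36.7, 42.3 and 39.9 in wild type against 48.8, 35.2 and 39.5 in ADCY3∆AT, so Cpt1b was the main form in every library. Cpt2 ran from 525 to 592 CPM in wild type and from 549 to 576 CPM in ADCY3∆AT.

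The acyl-CoA dehydrogenases take the first electrons, each from its own range of chain lengths. Acadvl, for very long chains on the inner membrane, had 3002, 3005 and 2882 CPM in wild type against 2911, 2773 and 2912 CPM in ADCY3∆AT (log2 fold change -0.05, interval -0.16 to 0.06). Acadl, the long-chain enzyme, had 1589.7, 1694 and 1529 CPM in wild type against 1545, 1360.1 and 1481 CPM in ADCY3∆AT. ADCY3∆AT replicate 1 lay inside the wild-type range and the other 2 ADCY3∆AT libraries lay below it, for a log2 fold change of -0.13 (interval -0.28 to 0.01, edgeR adjusted p = 0.508). Acadm, the medium-chain enzyme, had 1659.7, 1828 and 1693 CPM in wild type against 1981, 1744 and 1546 CPM in ADCY3∆AT. The highest and the lowest of its 6 values were both in ADCY3∆AT, and the fold change was 0.02 (interval -0.18 to 0.23). Acads, for short chains, overlapped at 447 to 478 CPM in wild type against 442 to 496 CPM in ADCY3∆AT.

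Acadsb (ENSMUSG00000030861, chromosome 7, 131410601 to 131448944) was the dehydrogenase whose groups did not overlap. It acts on short branched chains and is best known from isoleucine breakdown. It had 154, 182 and 166 CPM in wild type against 153, 135 and 153 CPM in ADCY3∆AT, so that the nearest libraries of both groups differed by about 1 CPM. The log2 fold change was -0.19 ± 0.08 (SE; interval -0.36 to -0.01), with an unadjusted p = 0.0411 and an adjusted p = 0.428 in edgeR. Without wild-type replicate 2, the highest library, the unadjusted edgeR p was 0.158.

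The core mitochondrial steps were carried by some of the most abundant transcripts of the set. Hadha (ENSMUSG00000025745, chromosome 5, 30118304 to 30155162) encodes the trifunctional subunit with hydratase and 3-hydroxyacyl-CoA dehydrogenase activity. It had 2537, 2583 and 2604 CPM in wild type against 2677, 2565 and 2520.1 CPM in ADCY3∆AT. The coefficient of variation was 1.34% in wild type against 3.12% in ADCY3∆AT, the groups overlapped, and the log2 fold change was 0.01 (interval -0.10 to 0.11). Hadhb (ENSMUSG00000059447, chromosome 5, 30155248 to 30184593), the thiolase subunit, was singled out after its values were seen because it was the most abundant member per kilobase, at 2115 CPM in wild type. Its levels were 4173, 4424 and 4396 CPM in wild type against 4516, 4138 and 4049.9 CPM in ADCY3∆AT (log2 fold change -0.03, interval -0.16 to 0.10). The ratio of Hadha to Hadhb per kilobase was 0.310, 0.298 and 0.302 in wild type against 0.302, 0.316 and 0.317 in ADCY3∆AT, the pair whose start region is printed above. Both subunits were highest in ADCY3∆AT replicate 1.

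The other core enzymes overlapped between the groups. Echs1, the short-chain hydratase, ran from 613 to 671 CPM in wild type and from 583 to 631 CPM in ADCY3∆AT. Hadh, the short-chain 3-hydroxyacyl-CoA dehydrogenase, ran from 1051 to 1089 CPM and from 1029 to 1244 CPM, with a log2 fold change of 0.10 (interval -0.06 to 0.26). Without ADCY3∆AT replicate 3 that fold change of Hadh was 0.17 (edgeR adjusted p = 0.226), and without ADCY3∆AT replicate 1 it was 0.03 (adjusted p = 0.909). Acaa2, the mitochondrial 3-ketoacyl-CoA thiolase, ran from 1457 to 1567 CPM and from 1433 to 1709 CPM. Acat1, the acetoacetyl-CoA thiolase, had 737, 797 and 760.5 CPM in wild type against 769.9, 679.5 and 711 CPM in ADCY3∆AT (log2 fold change -0.09, interval -0.23 to 0.05). It had the lowest p of the core steps (edgeR adjusted p = 0.649).

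Unsaturated fatty acids need auxiliary isomerases and reductases, and the groups overlapped for both mitochondrial ones. Eci1, the enoyl-CoA isomerase, had 363, 377 and 368 CPM in wild type against 383, 349 and 371 CPM in ADCY3∆AT, for a log2 fold change of -0.01 (interval -0.13 to 0.11). Decr1, the 2,4-dienoyl-CoA reductase, ran from 1124 to 1153 CPM in wild type and from 1096 to 1195 CPM in ADCY3∆AT. Electrons from the dehydrogenases pass through electron transfer flavoprotein (Etfa and Etfb) to its ubiquinone oxidoreductase (Etfdh). Etfa had 995, 1052 and 1001 CPM in wild type against 1007, 929 and 957 CPM in ADCY3∆AT. All 3 genes had negative log2 fold changes, of -0.08 (interval -0.20 to 0.05) for Etfa, -0.10 for Etfb and -0.02 for Etfdh, and in all 3 the groups overlapped. None passed the test in edgeR, where the adjusted p of Etfa was 0.645.

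**Figure D2:**
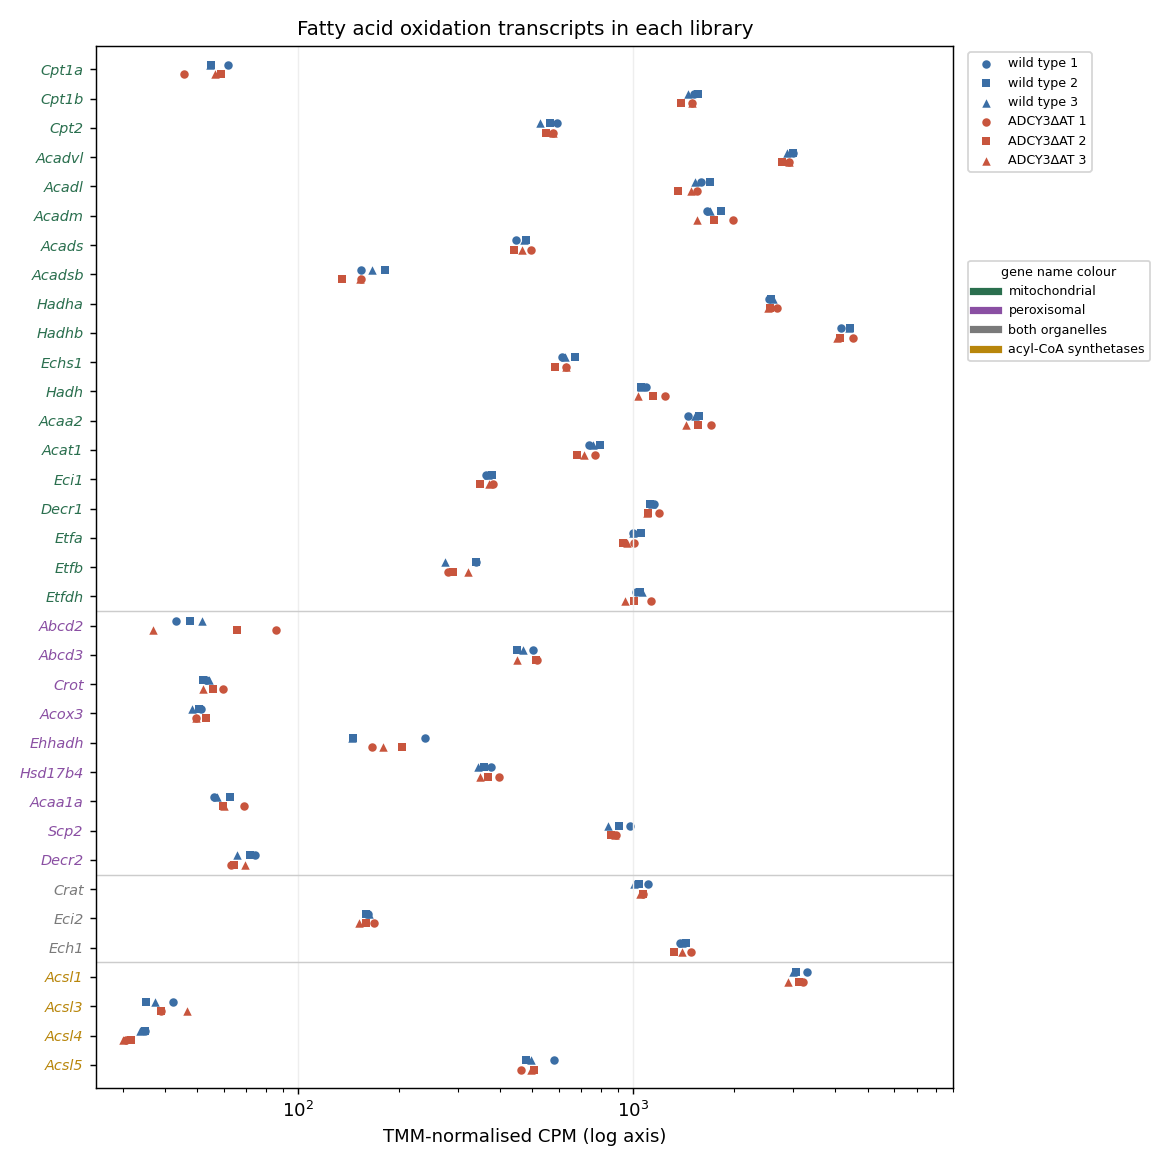
TMM-scaled CPM of the 35 members (rows, names coloured by class) on a log axis, with 1 symbol per library, wild type in blue and ADCY3∆AT in red. The symbols of both genotypes interleave for most genes. The ADCY3∆AT points of Acsl4 and Acadsb lie below the wild-type points, and those of Abcd2 spread from 36.8 to 85.6 CPM.

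Peroxisomal entry uses membrane transporters of the ABC class D family, and shortened chains can leave as carnitine esters. Abcd2 (ENSMUSG00000055782, chromosome 15, 91145871 to 91191799), a very-long-chain acyl-CoA transporter, had 43.1, 47.6 and 51.8 CPM in wild type against 85.6, 65.4 and 36.8 CPM in ADCY3∆AT. ADCY3∆AT replicates 1 and 2 were above, and replicate 3 below, every wild-type library. Its coefficient of variation was 9.14% in wild type against 39.2% in ADCY3∆AT. The log2 fold change of 0.40 ± 0.25 (SE; interval -0.18 to 0.98) did not pass in edgeR (adjusted p = 0.609). Without ADCY3∆AT replicate 3 it was 0.67 (edgeR adjusted p = 0.0721), and without ADCY3∆AT replicate 1 it was 0.11 (adjusted p = 0.913). Adcy3 itself was higher in ADCY3∆AT replicate 3 (506 CPM) than in replicates 1 and 2 (348.5 and 342 CPM), and its part in the spread of Abcd2 was not tested. Abcd3, the most abundant peroxisomal membrane transporter here, ran from 450.0 to 500.6 CPM in wild type and from 449.0 to 516 CPM in ADCY3∆AT. Crot, which makes medium-chain carnitine esters for export, ran from 52.1 to 54.1 CPM and from 52.0 to 59.5 CPM.

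The bifunctional enzymes hydrate and dehydrogenate the peroxisomal chain. Ehhadh (ENSMUSG00000022853, chromosome 16, 21761287 to 21787807), the L-bifunctional enzyme and a known target of PPAR alpha in liver, had 239, 146 and 144 CPM in wild type against 166, 204 and 179 CPM in ADCY3∆AT. Wild-type replicate 1 was the highest of the 6 libraries and the other wild-type libraries were the lowest, which gave a coefficient of variation of 30.7% in wild type against 10.6% in ADCY3∆AT. The log2 fold change was 0.05 ± 0.19 (SE; interval -0.37 to 0.48). Without wild-type replicate 1 it was 0.34, at an unadjusted p = 0.00709 and an adjusted p = 0.315 in edgeR. Leaving out wild-type replicate 2 or 3 gave -0.07, and leaving out ADCY3∆AT replicate 2 gave -0.03, so its sign turned in 3 of 14 alternatives. Hsd17b4, the D-bifunctional enzyme, which also handles branched chains and bile acid precursors, was steadier, with 375, 358 and 344 CPM in wild type against 397, 368 and 349.5 CPM in ADCY3∆AT (log2 fold change 0.05, interval -0.10 to 0.20).

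Peroxisomal thiolysis is split between Acaa1a, for straight chains, and the thiolase form of Scp2, for branched ones. Acaa1a had 56.0, 62.4 and 57.4 CPM in wild type against 68.7, 59.6 and 59.9 CPM in ADCY3∆AT, where replicate 1 was above the wild-type range (log2 fold change 0.10, interval -0.07 to 0.26). Acaa1a is close in sequence to Acaa1b and overlaps Myd88 on the opposite strand, whose count was 11.8% of its own. The value of Acaa1a is uncertain if reads were split between them. Acaa1b, not a member, had 74.0, 54.3 and 57.9 CPM in wild type against 47.8, 55.2 and 65.4 CPM in ADCY3∆AT. Its groups overlapped and its sign was the other way (log2 fold change -0.15, edgeR adjusted p = 0.741). Scp2 (ENSMUSG00000028603, chromosome 4, 108043839 to 108144998) had 976, 907 and 838 CPM in wild type against 886, 858 and 881 CPM in ADCY3∆AT, and the gene row also counts the short lipid carrier form. Its groups overlapped, with a log2 fold change of -0.05 (interval -0.20 to 0.09). Acox3, a branched-chain acyl-CoA oxidase, stayed between 48.3 and 53.0 CPM over the 6 libraries. Decr2, the peroxisomal dienoyl-CoA reductase, had 74.0, 71.8 and 65.6 CPM in wild type against 63.0, 64.2 and 69.4 CPM in ADCY3∆AT, for a log2 fold change of -0.10 (interval -0.25 to 0.04, edgeR adjusted p = 0.601).

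The 3 genes of both organelles stayed within the spread between libraries. Crat, carnitine acetyltransferase, ran from 1003 to 1108 CPM in wild type and from 1047 to 1072 CPM in ADCY3∆AT. Eci2, an enoyl-CoA isomerase, had 161, 159.5 and 162 CPM in wild type against 168, 159 and 151 CPM in ADCY3∆AT. Ech1, a dienoyl-CoA isomerase, followed Hadhb and Acadvl in the order of members per kilobase, at 1108 CPM in wild type. Its log2 fold change was -0.00, and those of Crat and Eci2 were 0.01 and -0.02.

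Acyl-CoA synthetases differ in which pool of fatty acid they activate. Acsl1, the main form of fat tissue and the one tied to oxidation there, had 3293, 3066 and 2988 CPM in wild type against 3215, 3113 and 2890.4 CPM in ADCY3∆AT. It was at 799.6 CPM per kilobase in wild type, and its log2 fold change was -0.02 (interval -0.16 to 0.12). Acsl4 (ENSMUSG00000031278, chromosome X, 142317993 to 142390535), which prefers arachidonic acid, was the scarcest member per kilobase, at 6.53 CPM. It had 34.8, 34.9 and 33.8 CPM in wild type against 30.6, 31.7 and 30.1 CPM in ADCY3∆AT, so the groups did not overlap. The log2 fold change of -0.16 ± 0.05 (SE; interval -0.28 to -0.05) had the lowest p of the 35 members (unadjusted p = 0.01, adjusted p = 0.307 in edgeR), and its unadjusted p was under 0.05 in each of the 14 alternative fits. Acsl5 ran from 479 to 579.8 CPM in wild type and from 461 to 504 CPM in ADCY3∆AT. Acsl3, at 35.1 to 46.7 CPM over the 6 libraries, overlaps Utp14b on the same strand, and the count of Utp14b was 81.3% of that of Acsl3, so its value is uncertain.

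Mitochondrial and peroxisomal members were then compared within each library. Mitochondrial members took 2.35%, 2.35% and 2.41% of all counts in wild type against 2.43%, 2.31% and 2.31% in ADCY3∆AT. Peroxisomal members took 0.237%, 0.207% and 0.211% in wild type against 0.225%, 0.227% and 0.216% in ADCY3∆AT. The summed peroxisomal level was thus 8.79% to 10.1% of the mitochondrial one in wild type against 9.26% to 9.83% in ADCY3∆AT, and the ADCY3∆AT values lay inside the wild-type range. Per kilobase, the most abundant peroxisomal member was Scp2 (344 CPM in wild type), followed by Abcd3 (136) and Hsd17b4 (134). Among mitochondrial members Hadhb (2115), Acadvl (1367) and Acaa2 (1001) led.

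As a mean of log2 CPM over its members, the mitochondrial class was at 9.71, 9.75 and 9.69 in wild type against 9.74, 9.64 and 9.66 in ADCY3∆AT. The peroxisomal class was at 7.13, 7.04 and 7.01 in wild type against 7.20, 7.16 and 7.01 in ADCY3∆AT. The difference of peroxisomal minus mitochondrial level was -2.57, -2.71 and -2.68 in wild type against -2.53, -2.48 and -2.65 in ADCY3∆AT. ADCY3∆AT replicates 1 and 2 had the smallest gaps between the organelles, and replicate 3 fell among the wild-type libraries. The means of that difference were -2.65 ± 0.072 and -2.56 ± 0.087 (SD, n = 3 each), 0.098 apart, which is close to the spread between libraries. Leaving out Abcd2, a choice made after its values were seen, reduced the 0.098 to 0.0655. The members' own fold changes were below 0 for 13 of 19 mitochondrial genes (median -0.03) and above 0 for 7 of 9 peroxisomal genes (median 0.05), the exceptions among the latter being Scp2 and Decr2. The median over all genes tested was 0.00, and no peroxisomal member reached an unadjusted p under 0.05 in edgeR. Peroxisomal genes outside the members leaned the other way. Below 0 were 15 of 19 other peroxisomal enzymes and transporters (median -0.06) and 12 of 16 peroxins (median -0.06). Of 13 other mitochondrial genes, 12 were below 0 (median -0.05).

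**Figure D3:**
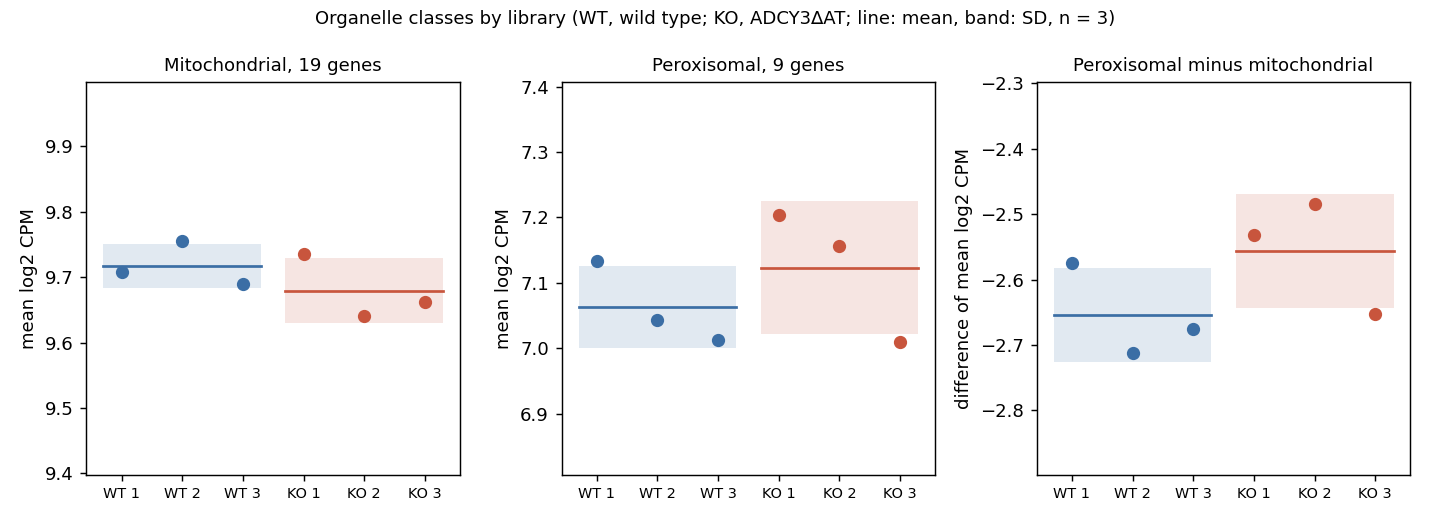
Mean log2 CPM of the mitochondrial and the peroxisomal members, and the difference between them, in each of the 6 libraries (points, WT for wild type and KO for ADCY3∆AT), with the mean (line) and SD (band) of each genotype. The difference runs from -2.71 to -2.57 in wild type and from -2.65 to -2.48 in ADCY3∆AT, and the groups overlap.

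The highest and lowest values of the members were unevenly spread over the libraries, and the same counts over all genes tested were not made. ADCY3∆AT replicate 1 was the highest of the 6 libraries for 16 of 35 members, and ADCY3∆AT replicate 3 the lowest for 13, with replicate 2 the lowest for 10. Wild-type replicates 1 and 2 were highest for 9 and 8 members, and wild-type replicate 3 for 0. Compared with the wild-type mean, 21, 13 and 6 of 35 members were above it in ADCY3∆AT replicates 1, 2 and 3. In wild-type replicates 1, 2 and 3 that count was 19, 23 and 8. Wild-type replicate 3 was the lowest of the 6 libraries for 7 members. The coefficient of variation was higher in ADCY3∆AT for 26 of 35 members (74.3%), against 52.8% of all genes tested. Among genes at least as abundant as the scarcest member, which were not matched to the members' levels, the share was 56.9%. The median coefficient of variation over members was 4.38% in wild type against 5.85% in ADCY3∆AT. In ADCY3∆AT replicates 1, 2 and 3 the muscle markers, Mb included, summed to 264.5, 664.8 and 971 CPM. The brown adipocyte markers summed there to 19180.5, 19074 and 18349.6 CPM. In wild type the brown adipocyte sum was 19405, 19191 and 19405 CPM. The part of either marker group in the members' values was not tested.

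**Figure D4:**
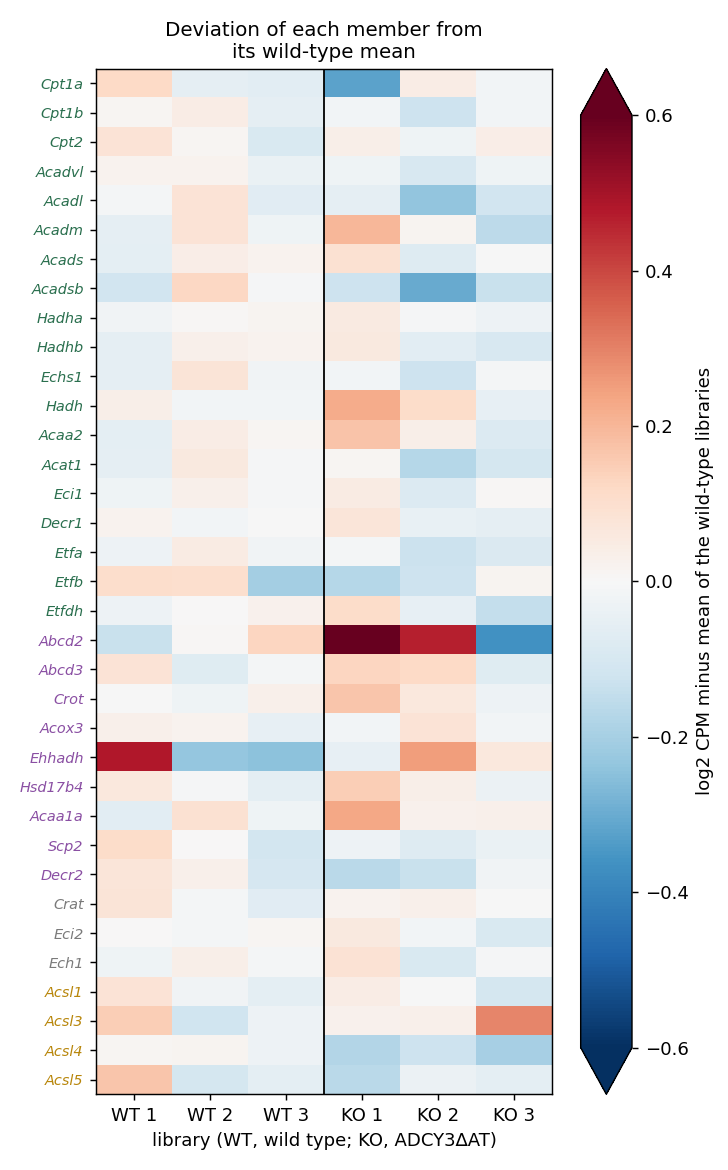
Log2 CPM of each member (rows, by class) minus its wild-type mean in each of the 6 libraries (columns, WT for wild type and KO for ADCY3∆AT), red above and blue below that mean. ADCY3∆AT replicate 1 holds the highest value for 16 members and ADCY3∆AT replicate 3 the lowest for 13, and Abcd2 and Ehhadh show the widest range.

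The other genes of the pathway were measured from lists of 73 genes, and 0 of 73 passed in edgeR. At an unadjusted p under 0.05 there were 17 (4 higher, 13 lower), against 11% of all genes tested (5.23% higher, 5.78% lower). The groups did not overlap for 15 (3 higher and 12 lower), against 16.5% of all genes (7.68% higher, 8.83% lower). The median log2 fold change was -0.05, with 52 of 73 below 0. In the control of carnitine entry and activation (15 genes, 1 higher and 3 lower at an unadjusted p under 0.05, against 5.23% and 5.78% of all genes), the lowest p-values were those of the catalytic subunits of AMP-activated kinase, which phosphorylates the enzymes that make malonyl-CoA. Prkaa2 had 37.5, 41.2 and 42.6 CPM in wild type against 31.7, 33.1 and 36.3 CPM in ADCY3∆AT (log2 fold change -0.26 ± 0.07, edgeR adjusted p = 0.263). Prkaa1 had 71.0, 68.5 and 63.8 CPM in wild type against 56.9, 57.9 and 63.7 CPM in ADCY3∆AT (-0.19 ± 0.06, edgeR adjusted p = 0.346). Both were lower in every ADCY3∆AT library than in any wild-type library. The carnitine-acylcarnitine carrier Slc25a20, the step between Cpt1 and Cpt2, had 662, 643 and 669 CPM in wild type against 698.5, 679.5 and 654 CPM in ADCY3∆AT and overlapped (0.04 ± 0.05).

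Of 13 other mitochondrial acyl-CoA and ketone body genes, 12 had negative log2 fold changes and 3 were lower at an unadjusted p under 0.05, against 5.78% of all genes. Oxct1, which activates acetoacetate in ketone body use, had 634, 697 and 598 CPM in wild type against 472.5, 442 and 606 CPM in ADCY3∆AT. ADCY3∆AT replicate 3 lay among the wild-type values (log2 fold change -0.34 ± 0.12, edgeR adjusted p = 0.339). Hsd17b10, a short-chain dehydrogenase of isoleucine breakdown, had 51.8, 58.6 and 52.2 CPM in wild type against 47.2, 43.2 and 51.6 CPM in ADCY3∆AT, groups that did not overlap (edgeR adjusted p = 0.413).

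Of 19 other peroxisomal enzymes and transporters, 15 had negative log2 fold changes and 4 were lower at an unadjusted p under 0.05, against the same 5.78% of all genes. Agps, an enzyme of ether lipid synthesis, had 60.4, 58.7 and 59.2 CPM in wild type against 51.9, 55.7 and 54.0 CPM in ADCY3∆AT (log2 fold change -0.14, edgeR adjusted p = 0.346). Pxmp2, a peroxisomal membrane channel, was scarce, at 4.17 to 6.02 CPM in wild type against 3.74 to 4.22 CPM in ADCY3∆AT (edgeR adjusted p = 0.388). Among 16 peroxins, which build peroxisomes, 12 were below 0 and 2 were lower at an unadjusted p under 0.05, against that 5.78%. The groups did not overlap for 6 of the 16 (5 lower and 1 higher), against 8.83% lower and 7.68% higher over all genes. Pex13, of the import pore, had 179.6, 179 and 171 CPM in wild type against 162, 159.9 and 156 CPM in ADCY3∆AT (log2 fold change -0.15, edgeR adjusted p = 0.338).

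Of 10 regulators of oxidation, 3 were higher in ADCY3∆AT and 1 was lower at an unadjusted p under 0.05, against 5.23% and 5.78% of all genes. Ppara, the nuclear receptor that drives oxidation genes in liver and brown fat, had 292, 253 and 269 CPM in wild type against 335, 346 and 333 CPM in ADCY3∆AT. Every ADCY3∆AT library was above every wild-type library, and the log2 fold change was 0.32 ± 0.06 (SE). The adjusted p was 0.158 in edgeR, above the threshold of 0.05, and 0.00227 in DESeq2, below it. Pdk4, which shuts off pyruvate oxidation when fat is burned, had 1768, 1194 and 1273 CPM in wild type against 1911, 1751 and 1789 CPM in ADCY3∆AT (log2 fold change 0.36 ± 0.13, edgeR adjusted p = 0.382). Its wild-type replicate 1 lay within the ADCY3∆AT range.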

How the data were processed

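The 6 libraries of brown fat RNA were analysed. The authors deposited 1 table of estimated counts per Ensembl gene, not normalised; 31.6% of its values were not whole. Salmon, StringTie, edgeR and GRCm38 are named without versions in the submitters' processing notes. The use of strand and other settings was not given in the sources used here. Symbols came from GENCODE M21 (54131 of 54385 rows matched, 254 did not). Rows without a symbol stayed in the library totals.

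Counts were rounded, genes kept with filterByExpr, libraries scaled by TMM and all 18114 genes tested on genotype alone in edgeR 4.0.16 (R 4.3.3) by its quasi-likelihood F test, adjusted over all of them by Benjamini and Hochberg at a threshold of 0.05. Intervals are at 95%, and the SE is the one implied by F. Log2 CPM used a prior count of 2. CPM per kilobase was divided by the longest annotated coding transcript. DESeq2 1.42.0 and limma 3.58.1 (voom) were alternatives, beside other scalings and filters, each library left out and the replicate number as a block. The fit was tried on data simulated at the dispersions found here, with 200 genes changed by 1.5-fold or more. The members' fold changes were all smaller than that, so the simulation does not cover them. Every pair of libraries differed by more than sampling noise (chi-square per degree of freedom 24.1 to 71.5).

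The members and all lists were chosen with earlier results of these data known. Library values are given for 12 members fixed for their roles and for the lowest p of each step, and in each other list for the 2 lowest p, with Slc25a20 and Ppara. Of these, 1 gene is not reported here. Elovl3 and Cdh5, and library values of Hadhb, Acaca, Acacb, Bdh1, Acaa1b and Mb, were added after the values were seen. So were fold changes of Abcd2, Acadsb, Ehhadh and Hadh without a library. Marker lists covered brown adipocyte, skeletal muscle, hepatocyte, macrophage and endothelial genes. Macrophage markers summed to 150.5, 90.1 and 104 CPM in wild type against 104.9, 161 and 153.6 CPM in ADCY3∆AT.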

Additional observations from a re-analysis of the deposited data

How the results depend on the processing

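Of 104 results of the comparisons under an alternative, 85 counted as unchanged. A count was held unchanged if it was equal to the main one or within 1.5-fold of it. A median or gap was held unchanged if it moved by less than the SD between libraries within a genotype. For both organelle medians that SD was larger than the median itself, so the rule is loose there. In each of the 14 alternative fits, 0 members were called. The number of all genes called moved from 1 to 229 with DESeq2, 214 with no filter on low counts, 2 with limma voom and 3 with the replicate block, and ran from 1 to 66 when a library was left out, with 66 without ADCY3∆AT replicate 3 and 2, 4 and 2 without wild-type replicates 1, 2 and 3. Members at an unadjusted p under 0.05 (2) became 4 with no filter (Abcd2, Acadl, Acadsb and Acsl4) and 1 with the replicate block (Acsl4), against 8.39% and 8.12% of all genes, and ran from 1 to 4 when a library was left out, against 7.2% to 14%. Members whose groups did not overlap (2) became 4 with library totals alone, against 15.3% of all genes, and ran from 2 to 9 of 35 when a library was left out, against 23.6% to 31.8%, where fewer libraries make overlap rarer. The cause of the other moves was not tested. The median log2 fold change stayed between -0.06 and -0.01 for mitochondrial members and between 0.02 and 0.09 for peroxisomal members, and the difference of the organelle gap between 0.0429 and 0.146. A member's sign turned in 33 of 490 values, for 18 members, none with a fold change past 0.0911 in size. Ppara passed with DESeq2 (0.32, adjusted p = 0.00227) and with no filter in edgeR (0.32, adjusted p = 0.0317). Another scaling moved the median of all genes by 0.0153 at most. Samples that share a replicate number did not deviate together (correlations -0.0857, -0.128 and -0.0864, each below that with another number), so the replicate block has no basis in the data. The intervals given rest on 3 libraries a group and are not adjusted for the number of genes tested, while a call was. Adcy3, with an interval of -1.11 to -0.46, was not called in edgeR (adjusted p = 0.158).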

Other observations

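A few genes of malonyl-CoA and ketone body metabolism varied widely among the ADCY3∆AT libraries, and they were chosen after their values were seen. Acaca, one of the genes whose enzymes make malonyl-CoA, had 474, 440.2 and 493 CPM in wild type against 960.2, 736 and 424 CPM in ADCY3∆AT (log2 fold change 0.59, edgeR adjusted p = 0.424). Acacb, which also makes malonyl-CoA, was more abundant and overlapped between the groups. It had 1692, 1762 and 1801 CPM in wild type against 1761, 1707 and 1682 CPM in ADCY3∆AT (log2 fold change -0.03, edgeR adjusted p = 0.867). Bdh1, an enzyme of ketone body use, had 43.2, 48.1 and 37.4 CPM in wild type against 10.7, 16.5 and 45.6 CPM in ADCY3∆AT (log2 fold change -0.82, edgeR adjusted p = 0.543). In Acaca and Bdh1, as in Abcd2 and Oxct1, ADCY3∆AT replicates 1 and 2 lay outside the wild-type range on one side. Replicate 3 lay within that range (Bdh1 and Oxct1) or past its other end (Acaca and Abcd2). Adcy3 was at 348.5, 342 and 506 CPM in the same 3 libraries.

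Ehhadh and Pdk4 were both highest within wild type in replicate 1, at 239 and 1768 CPM, against 146 and 144 CPM for Ehhadh and 1194 and 1273 CPM for Pdk4 in the other wild-type libraries. Cpt1a was also highest of all 6 libraries there, at 61.9 CPM, and so was Acsl1, at 3293 CPM.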
